A study of Mus musculus with 10 samples.

Results

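Linoleate (LA) was compared with Vehicle in primary mouse hepatocytes in 4 of the 10 libraries of the series. These were the 2 libraries whose titles name LA without Neurotropin (NTP) and the 2 whose titles name Vehicle, and all genes of their tables were used. The cells came from C57BL/6 mice and were isolated by collagenase perfusion, plated on collagen I in medium with 10% FBS and then left overnight without serum. LA was given at 12 μM for 24 h. The other 6 libraries, 2 in each group, were PA (200 μM palmitate for 24 h), PA+NTP and LA+NTP, with 1 h of NTP before the fatty acid, and they served to estimate the spread and, for PA, to set LA beside another fatty acid. The labels do not say whether the libraries of a group came from separate cultures or animals, so the p-values measure the spread between these samples, which may be technical.

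Linoleate is an essential polyunsaturated fatty acid that hepatocytes activate with coenzyme A and then oxidize, store as triglyceride, build into phospholipids, or desaturate and elongate toward arachidonate. Polyunsaturated fatty acids are known ligands of PPARα, the nuclear receptor that drives genes of fatty acid oxidation and ketogenesis. They are also known to lower the activity of SREBP-1c, which drives genes of lipogenesis and of the fatty acid desaturases.

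Sequencing depth overlapped between the groups. The expected counts, which are estimates of the reads that come from each gene, came to 18795990 and 26900384 for Vehicle and to 32312383 and 23696170 for LA. The spread between libraries of the same group exceeded counting noise, with a chi-square of 3.73 per gene for Vehicle and 6.03 for LA.

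The hepatocyte label was checked against marker genes, with levels in FPKM (fragments scaled to transcript length and library size). All 8 hepatocyte markers were at or above 1 FPKM in the 4 libraries. Their summed level was 3506 and 3297 in Vehicle and 3387 and 3326 in LA, and albumin (Alb) was the most abundant at 2467 to 2594. No hepatocyte marker was called as changed by the rule given with the counts of genes that follow. The 8 Kupffer cell markers summed to 208.9 and 208.9 in Vehicle and to 126 and 131 in LA, so the groups did not overlap. Nearly all of that level was Cd68, a lysosomal protein of macrophages and other cells, at 203 in both Vehicle libraries and 122 and 126 in LA. Of the markers of other cells, Cd68 (log2 fold change -0.67) and the stellate cell marker Col1a1 (-0.74) were called as lower, and neither was called with the GC trend removed (-0.53 and -0.30). Col1a1 was also not called without LA 1 (-0.51). How much other cells add to the differences was not tested. The defining Kupffer cell markers Adgre1 and Clec4f were under 1 in the 4 libraries, and in bulk RNA fewer cells of a type and less RNA per cell cannot be told apart. The 6 endothelial markers summed to 38.2 and 38.3 in Vehicle and 29.4 and 32.4 in LA, led by Cdh5. The 6 stellate cell markers summed to 17.7 to 18.8, led by Dcn, and the 5 cholangiocyte markers to 583 to 678, of which Spp1 made up 572 to 668 while Krt7 and Epcam were at or under 0.20. Neutrophil and red cell markers summed to at most 0.48 and 0.90, with S100a8, S100a9, Ly6g and Hbb-bs not listed. T and B cell markers summed to at most 0.28, with Cd4 listed at 0 and Ms4a1 not listed.

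The expected counts of all 10 libraries were fitted with edgeR's quasi-likelihood test. To be called, a gene needed an adjusted p (Benjamini-Hochberg) below 0.05 together with a change of 1.5-fold or more. Of 14097 genes tested, 498 were higher with LA (3.53%) and 1002 were lower (7.11%). Their median log2 fold changes were 0.70 and -0.78, and that of all genes tested was -0.01. Higher genes were 33.2% of the calls, and with library-size scaling in place of TMM they were 23.1% (360 higher and 1197 lower, with a median of all genes of -0.05). Protein-coding genes made up 449 of the higher and 920 of the lower genes, and 29 and 62 were among the 602 lncRNA genes tested. Every gene called kept its sign when any of the 4 libraries was left out, but 219 of the higher genes (44.0%) and 536 of the lower genes (53.5%) stayed called in all 4 of these fits.

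The calls differed with base composition. Genes were sorted by the GC content of the transcript into 10 bins of equal size. In the bin of lowest GC content (31.2% to 41.6%), 265 of 1397 genes were higher with LA (19.0%) and 24 were lower (1.72%), and the median log2 fold change was 0.45. In the bin of highest GC content (58.0% to 72.5%), 0 were higher and 430 were lower (30.8%), with a median of -0.48. The share of genes called as lower grew from bin to bin between 46.2% GC and the top, as the plot of calls by GC bin shows. The median GC content was 41.1% for the genes higher with LA and 57.3% for those lower, against 49.9% for all genes tested. Across genes within a library, which are not independent replicates, Spearman's rho between GC content and a gene's deviation from its mean was 0.421 and 0.381 for Vehicle and -0.566 and -0.559 for LA. It was -0.466 and -0.475 for PA and 0.340 to 0.565 for the 4 libraries with NTP, so the trend set LA and PA apart from the other groups. What gave rise to it was not tested, and a change that follows GC content cannot be told apart from it.

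**Figure D1:**
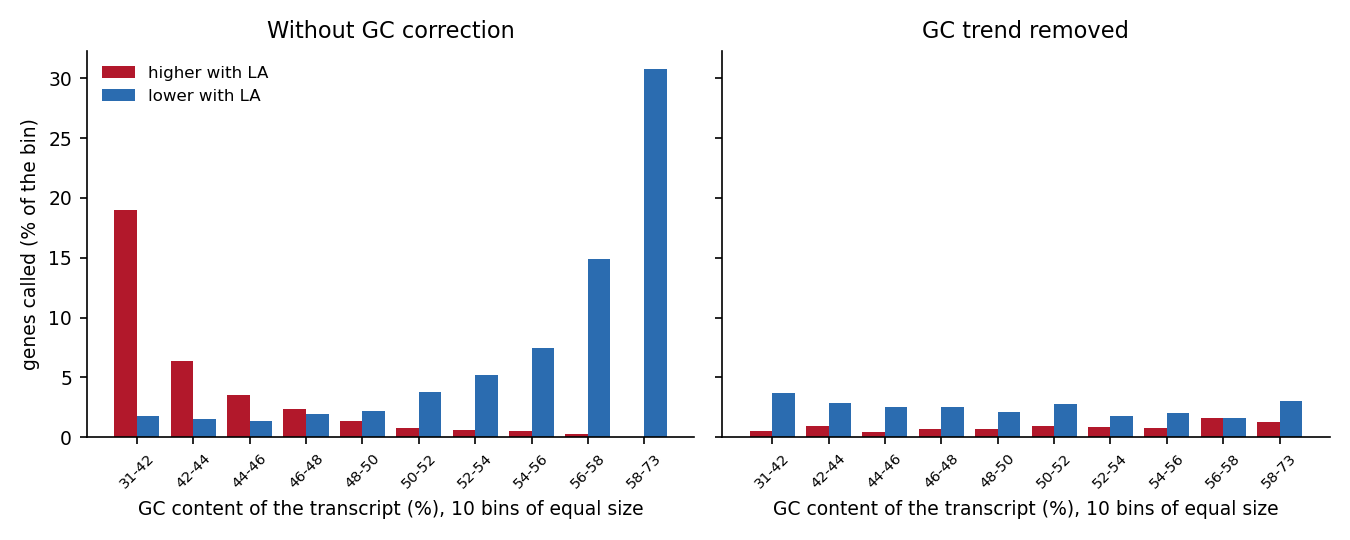
Share of genes called as higher (red) or lower (blue) with LA than with Vehicle, in percent of the genes in each of 10 bins by GC content of the transcript (x axis, percent). Without correction the bars run from 19.0% higher in the lowest bin to 30.8% lower in the highest, and with the GC trend removed all bars lie at or under 3.72%.

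Coding stretches are shown for genes at both ends of this range. They are the middle 90 coding bases of Chordc1 and Psmc6, which were higher with LA, and of Map3k11, which was lower. The GC content of the whole transcript, used for the bins, was 35.7% for Chordc1, 37.0% for Psmc6 and 61.3% for Map3k11. A stretch can differ from its transcript, as that of Psmc6 does. The sequences are from the GRCm38 build with GENCODE M21, on the coding strand, with G and C in capitals. The Chordc1 stretch lies in 2 coding exons at chr9:18305310-18308797 on the plus strand and has 38.9% GC. The Psmc6 stretch lies in 2 coding exons at chr14:45340638-45340808 on the plus strand, with 44.4% GC. The Map3k11 stretch lies in 2 coding exons at chr19:5695890-5696078 on the plus strand, with 66.7% GC.
Chordc1: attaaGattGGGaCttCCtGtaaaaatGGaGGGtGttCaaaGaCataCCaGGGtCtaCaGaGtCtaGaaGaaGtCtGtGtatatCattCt
Psmc6: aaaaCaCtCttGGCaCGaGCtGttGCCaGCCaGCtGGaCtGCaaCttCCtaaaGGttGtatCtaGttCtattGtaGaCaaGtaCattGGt
Map3k11: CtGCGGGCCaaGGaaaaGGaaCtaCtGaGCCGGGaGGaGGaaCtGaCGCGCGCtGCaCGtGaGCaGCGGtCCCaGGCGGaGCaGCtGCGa

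The genes were therefore also tested after each library had been corrected by a smooth curve over GC content, estimated without regard to the groups, which also removes any change that itself follows GC content. Of 13969 genes with a GC value, 118 were then higher with LA (0.845%) and 346 lower (2.48%), with median log2 fold changes of 0.89 and -0.88. Of the higher genes, 72 were called in both fits, which is 14.9% of the 483 called without correction that had a GC value and 61.0% of the 118. Of the lower genes, 271 were called in both, 27.4% of 989 and 78.3% of 346. No gene was called in opposite directions, and all genes called without correction that had a GC value kept the sign of their change. Both fits use the same counts, so this is no separate evidence for the calls. The genes called in both fits had a median GC content of 48.3% (higher) and 50.8% (lower), while those called only without correction had 40.6% and 58.3%. With single libraries left out, 58 of the 118 and 157 of the 346 stayed called in all 4 fits. After removal the medians of the 10 GC bins lay between -0.02 and 0.01.

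**Figure D2:**
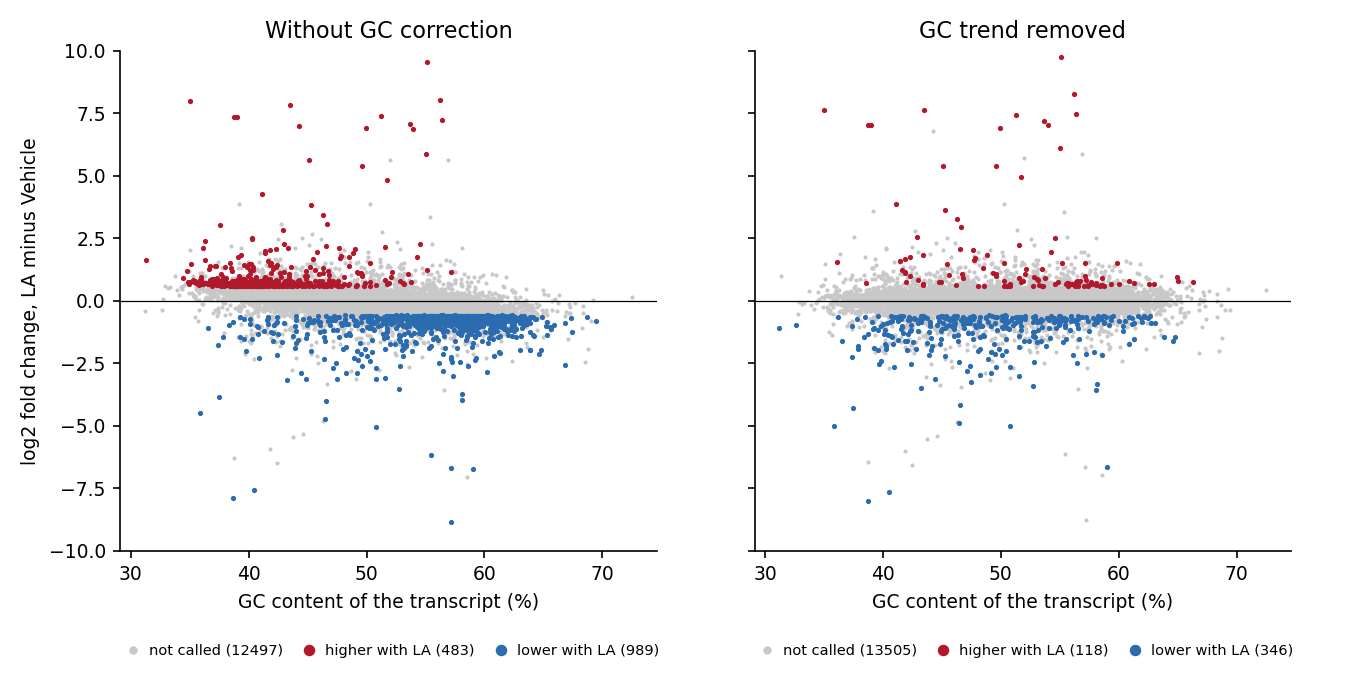
Log2 fold change of LA minus Vehicle (y axis) against GC content of the transcript in percent (x axis) for 13969 genes, as fitted (left) and with the GC trend removed (right), with genes called as higher in red and as lower in blue. On the left the genes slope from a median of 0.45 in the bin of lowest GC content to -0.48 in the bin of highest, and on the right they lie level. Fitted values beyond about 6 belong to genes with few or no counts in a group and depend on the prior count.

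Among genes called in both fits, protein-coding genes with a mean level of at least 1 FPKM were named by the size of their change, 10 in each direction. Levels that did not overlap between the groups were a condition for this, as for the genes named later as called in a single fit or as non-coding, so the lack of overlap in them is no further evidence. The 10 that rose included genes of secreted and matrix proteins. Lrrc17 (gene ID 74511, chr5:21543527-21575911), a secreted leucine-rich repeat protein, was at 0.08 and 0.05 FPKM in Vehicle and at 2.49 and 2.48 in LA. It was near 0 in both Vehicle libraries, which held 3.15 expected counts each, and clearly present in both LA libraries. Its log2 fold change was 5.39 (standard error 0.47, edgeR's adjusted p = 2.45e-06) and 5.37 with the GC trend removed. Cdnf (gene ID 227526, chr2:3513065-3526376), a neurotrophic factor of the endoplasmic reticulum, was at 0.98 and 0.90 in Vehicle and at 12.3 and 13.7 in LA. Both LA libraries were far above both Vehicle libraries, with a log2 fold change of 3.84 (standard error 0.14, edgeR's adjusted p = 5.63e-10) and 3.63 with the GC trend removed. Omd, a keratan sulfate proteoglycan of mineralized matrix, was at 4.33 and 2.76 in Vehicle and at 11.5 and 17.8 in LA. Its levels were spread in both groups and higher in LA, and it rose by 2.11 on the log2 scale (standard error 0.24, edgeR's adjusted p = 1.78e-05) and by 1.57 with the GC trend removed.

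Tctex1d2, a light chain of dynein, was at 2.59 and 3.21 FPKM in Vehicle and at 7.78 and 8.29 in LA. Both LA libraries lay above both Vehicle libraries, with a log2 fold change of 1.5 (standard error 0.20, edgeR's adjusted p = 5.40e-05) and 1.15 after removal of the GC trend. Naip5, an inflammasome receptor for bacterial flagellin, was at 0.81 and 0.73 in Vehicle and at 1.80 and 1.68 in LA, a log2 fold change of 1.24 (standard error 0.19, edgeR's adjusted p = 0.000152) and of 1.05 with the trend removed. Both LA libraries were higher, but 53.1% of the 31-base sequences of Naip5 occur in transcripts of other genes, so its counts are uncertain. The other 5 of the 10, Rpl34-ps1, Amd2, Gm12657, Mup1 and Mup16, share at least 82.2% of their sequence with other genes and are described with those copies.

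**Figure D3:**
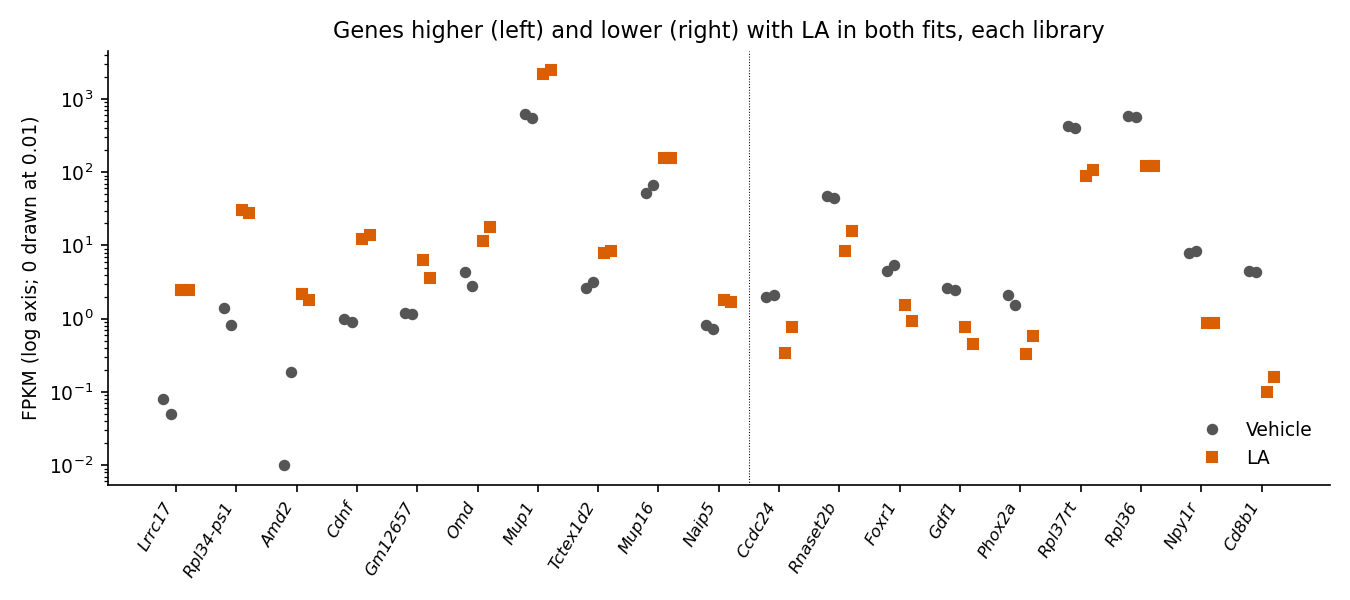
Level in FPKM (log axis) of 19 of the 20 protein-coding genes with the largest rises (left of the dotted line) and falls (right) among genes called in both fits, for each Vehicle (grey) and LA (orange) library. Genes were chosen without overlap between the 2 groups, and Lrrc17, Amd2 and Cd8b1 are near 0 in 1 group.

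The 10 genes that fell included cell surface receptors, an acid ribonuclease and ribosomal proteins. Npy1r (gene ID 18166, chr8:66697149-66706800), a G protein-coupled receptor for neuropeptide Y, was at 7.97 and 8.41 FPKM in Vehicle and at 0.88 and 0.87 in LA. Both LA libraries were far below Vehicle, a log2 fold change of -3.18 (standard error 0.12, edgeR's adjusted p = 1.15e-09) and of -3.48 with the GC trend removed. Cd8b1, the beta chain of the T cell coreceptor CD8, fell from 4.47 and 4.34 to 0.10 and 0.16, although the markers of T and B cells were near 0 in all 4 libraries and its partner Cd8a was at 0.15 and 0.18 in Vehicle. Rnaset2b, an acid ribonuclease of lysosomes, was at 48.1 and 44.9 in Vehicle and at 8.48 and 15.9 in LA, a log2 fold change of -1.91 (standard error 0.19, edgeR's adjusted p = 5.55e-06) and of -2.0 with the trend removed. Its copy Rnaset2a, which shares 85.8% of the sequence of Rnaset2b, was at 158 and 156 in Vehicle and 139 and 128 in LA and was not called, so the change of Rnaset2b is uncertain.

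Rpl36 (gene ID 54217, chr17:56610094-56614246), a protein of the large ribosomal subunit, was at 582 and 575 FPKM in Vehicle and at 120.3 and 122 in LA. All 4 values were tight within their group, and the log2 fold change was -2.21 (standard error 0.08, edgeR's adjusted p = 4.60e-10) and -1.71 with the GC trend removed. Rpl37rt, a retrotransposed relative of Rpl37, was at 433 and 403 in Vehicle and at 89.3 and 107 in LA, a log2 fold change of -2.05 (standard error 0.30, edgeR's adjusted p = 0.000103). The parent Rpl37 was at 280 and 281 in Vehicle and 263 and 248 in LA and was not called. Both Rpl36, with 94% of its sequence found elsewhere, and Rpl37rt, with 52%, are uncertain because reads can be split among copies. Among developmental regulators, the forkhead factor Foxr1 was at 4.45 and 5.34 in Vehicle and at 1.54 and 0.92 in LA, with a log2 fold change of -1.93 (edgeR's adjusted p = 0.000166). It was lower in both LA libraries and was called in both fits with any library left out. Phox2a, a homeobox factor of noradrenergic neurons (2.09 and 1.55 against 0.33 and 0.58), and Gdf1, a TGF-β family ligand (2.61 and 2.48 against 0.77 and 0.45), had log2 fold changes of -1.98 and -1.97. With the GC trend removed these were -1.44 and -1.43. Ccdc24 (1.99 and 2.09 against 0.34 and 0.76) had -1.91 and -1.65, and -2.53 and -2.28 without LA 2. With the GC trend removed, Phox2a was not called without Vehicle 1 (-1.24) or LA 1 (-1.05), Gdf1 was not called with any 1 of the 4 left out (-1.91 to -1.16), and Ccdc24 was not called without Vehicle 1 (-1.68), Vehicle 2 (-1.61) or LA 1 (-1.12). Gdf1 lies wholly within exons of Cers1 on the same strand, and 31.8% of the exon bases of Ccdc24 overlap Slc6a9 on the other strand, so both are uncertain.

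At least 50% of the 31-base sequences were found in transcripts of other genes for 873 of 13969 genes (6.25%). The share was 14.9% for genes higher with LA, 7.68% for genes lower, 29.2% for the 72 genes higher in both fits and 12.5% for the 271 lower in both, and among genes called only without correction it was 12.4% for the 411 higher and 5.85% for the 718 lower. These shares were not tested against each other. Among the 13096 genes under this share, 411 were higher (3.14%) and 913 lower (6.97%), and with the GC trend removed 95 (0.725%) and 307 (2.34%). Reads of such genes can be split among copies by the counting, so their values are uncertain, and some are set beside a gene in the files that shares much of their sequence. Of the list members described with their pathways, Gsta1, Hspa1b, Hsp90aa1, Cyp2a5 and Zfp934 share 55.5% to 92.2%.

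Short stretches show how little some of these copies differ. They are printed for 3 pairs in which a member rose with LA while its partner was lower in both LA libraries than in Vehicle. For the partners Rpl34, Rpl31 and Mup12 these are the first 90 coding bases. For Rpl34-ps1, Rpl31-ps12 and Mup1 they are the 90 bases of the transcript that match the partner best. The sequences are on the strand of the transcript (GRCm38 with GENCODE M21), with bases that differ within a pair in capitals. Rpl34-ps1 lies at chr6:71124610-71124699 (plus strand, 1 exon) and Rpl34 at chr3:130729126-130729293 (minus strand, 2 exons), and their stretches have 0 differences. Rpl31-ps12 lies at chr16:16820034-16820123 (minus strand) and Rpl31 at chr1:39368149-39368238 (plus strand), each in 1 exon, with 1 difference. Mup1 lies at chr4:60501760-60501849 and Mup12 at chr4:60741126-60741215, both on the minus strand in 1 exon, with 2 differences. All are exon sequence, and only those of Rpl34, Rpl31 and Mup12 were placed by an annotated coding sequence.
Rpl34-ps1: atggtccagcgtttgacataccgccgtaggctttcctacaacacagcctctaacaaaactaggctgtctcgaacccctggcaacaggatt
Rpl34: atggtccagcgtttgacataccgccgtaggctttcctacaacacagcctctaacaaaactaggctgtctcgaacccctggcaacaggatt
Rpl31-ps12: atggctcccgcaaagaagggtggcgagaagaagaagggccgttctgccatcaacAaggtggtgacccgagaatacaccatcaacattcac
Rpl31: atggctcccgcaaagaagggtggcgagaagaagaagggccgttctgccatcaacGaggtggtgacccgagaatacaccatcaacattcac
Mup1: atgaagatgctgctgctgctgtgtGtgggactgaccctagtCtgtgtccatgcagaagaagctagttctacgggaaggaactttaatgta
Mup12: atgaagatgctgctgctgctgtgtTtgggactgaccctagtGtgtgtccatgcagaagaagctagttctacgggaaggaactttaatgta

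Rpl34-ps1, a processed copy of the large-subunit protein gene Rpl34, was at 1.42 and 0.83 FPKM in Vehicle and at 30.2 and 28.0 in LA, a log2 fold change of 4.85 (standard error 0.27, edgeR's adjusted p = 5.47e-08) and 4.93 with the GC trend removed. Rpl34 itself, chosen after its values were seen, was at 705 and 608 in Vehicle and at 461 and 482 in LA, so the summed level of both fell short of Vehicle in LA (707 and 609 against 491 and 510). Rpl34 was not called at the fold of 1.5 (log2 fold change -0.43). Rpl31 was at 488 and 440 in Vehicle and at 174 and 207 in LA, with a log2 fold change of -1.24 (edgeR's adjusted p = 4.47e-06), while Rpl31-ps12, also chosen after its values were seen, was at 115 and 142 in Vehicle and 283 and 232 in LA. The sum of the pair was 603 and 581 in Vehicle and 458 and 439 in LA. The change of Rpl31-ps12 (log2 1.05) was not called without Vehicle 1 (0.91), Vehicle 2 (1.21) or LA 1 (0.90), and Rpl31 overlaps Tbc1d8 on the other strand over 25.3% of its exon bases. Amd2, a copy of the polyamine synthesis gene Amd1, was at 0 and 0.19 in Vehicle and at 2.18 and 1.80 in LA. Its log2 fold change of 4.26 became 3.47 without Vehicle 1 and 10.71 without Vehicle 2, where the remaining Vehicle library had no counts and the prior count sets the value. Amd1 was at 77.9 and 80.8 in Vehicle and at 109 and 101 in LA and was not called. Gm12657, which shares 71.4% of its sequence with the histone gene H3f3a, was at 1.18 and 1.15 in Vehicle and at 6.34 and 3.62 in LA (log2 fold change 2.15, edgeR's adjusted p = 0.0003), and H3f3a was at 163 and 157 against 216 and 188.

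The major urinary proteins, lipocalins that the mouse liver secretes and that carry pheromones, are encoded by a cluster of near-identical genes on chromosome 4. Of 21 Mup genes listed, 18 were tested, 10 were higher with LA (9 with library-size scaling) and 3 were lower, and with the GC trend removed 3 were higher and 3 lower. Mup1 was at 628 and 549 FPKM in Vehicle and at 2166 and 2449.6 in LA. It rose by 2.02 on the log2 scale (standard error 0.08, edgeR's adjusted p = 2.31e-09) and by 1.67 with the GC trend removed, and both LA libraries stood far above Vehicle. Mup16 was at 51.6 and 66.8 in Vehicle and at 158 and 157 in LA, and Mup18, singled out after its values were seen, at 2535 and 2639 and at 5460.4 and 5308. Both rose in both fits, by 1.45 and 1.10 on the log2 scale without correction. The genes that fell in both fits were Mup10 (1924 and 1635 against 1096 and 1014.5), Mup11 (1094 and 975 against 376 and 278) and Mup12 (406 and 298 against 132 and 154). Mup12 had a log2 fold change of -1.26 and shares 92.1% of its sequence with other genes. Without correction, Mup9 had a log2 fold change of 1.92, or 4.68 without Vehicle 2, and was not called without Vehicle 1 (1.15) or LA 1 (1.39). Mup10 (-0.71) was not called without Vehicle 1 (-0.58), nor Mup14 (0.62) without Vehicle 2 (0.53) or LA 1 (0.57). Summed over the 21 genes, the level was 21343 and 19874 in Vehicle and 31171 and 29951 in LA, so the sum was higher in both LA libraries while single members moved in both directions. These sums are not corrected for GC content, and the median log2 fold change of the family was 0.68 without correction, 0.63 with library-size scaling and 0.32 with that scaling and the GC trend removed. Since reads can pass between members, the value of each member is uncertain.

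**Figure D4:**
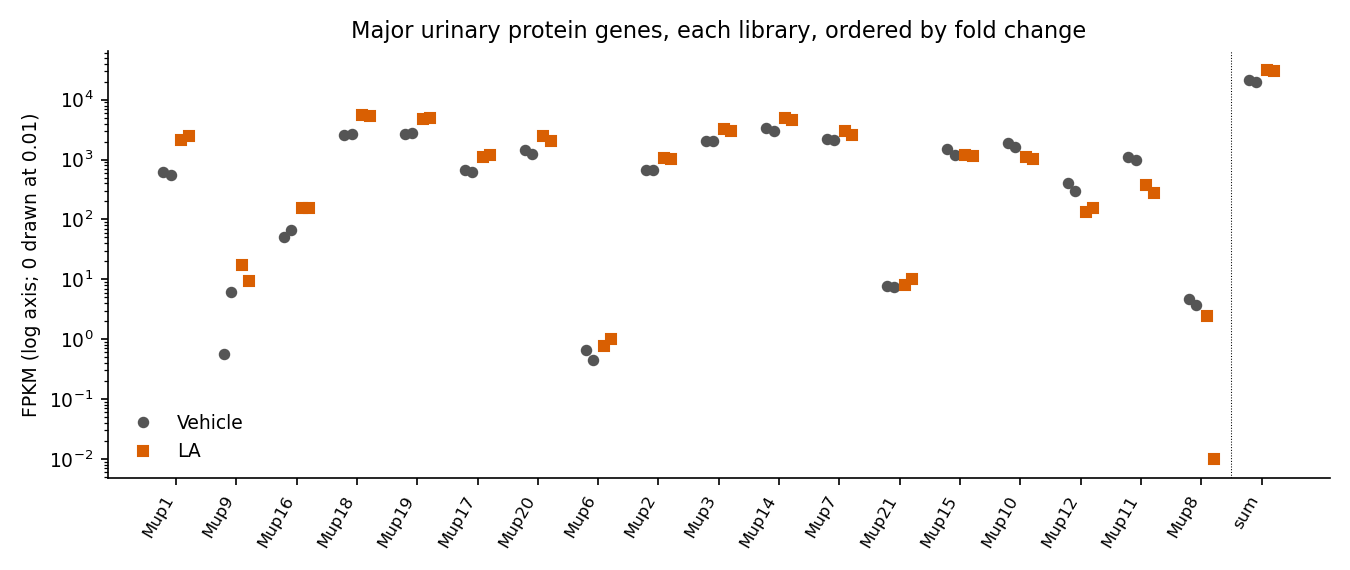
Level in FPKM (log axis) of the 18 tested Mup genes and of the sum over all 21 listed Mup genes, for each Vehicle (grey) and LA (orange) library, ordered by fold change. Mup1 is at 628 and 549 in Vehicle and at 2166 and 2449.6 in LA, and Mup11 and Mup12 are lower in both LA libraries.

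Of the protein-coding genes tested in both fits and called only without GC correction, with a mean of at least 1 FPKM, at least 50 expected counts in the higher group and no overlap between groups, the largest rises were those of Mup9, Ccdc152, Eif3j2 and Gm2026. Ccdc152 was at 1.17 and 1.01 FPKM in Vehicle and at 3.27 and 2.45 in LA, with a log2 fold change of 1.46 (edgeR's adjusted p = 0.00341) and of 0.88 with the trend removed. It was higher in both LA libraries, but 32.3% of its exon bases lie opposite Selenop, a very abundant liver gene. Eif3j2 (1.23) was not called without LA 1 (0.86), and Gm2026 (1.19) was not called without Vehicle 2 (1.06) or LA 1 (0.80), and both share at least 94.9% of their sequence with other genes. Within the same limits, the largest falls were those of Vps37d, 1700056E22Rik, Camk2n2 and Hyal3. Vps37d, a subunit of the ESCRT-I sorting complex, was at 2.23 and 2.01 in Vehicle and at 0.84 and 0.71 in LA, a log2 fold change of -1.39 (edgeR's adjusted p = 0.00185) and of -0.85 after removal of the trend. 1700056E22Rik (-1.36) was not called without Vehicle 2 (-1.10). Camk2n2, an inhibitor of CaM kinase II, had -1.27, with -2.06 without LA 1 and -0.82 and no call without LA 2. Hyal3, a hyaluronidase family member, had -1.07 and was not called without Vehicle 2 (-0.66), LA 1 (-1.24) or LA 2 (-0.94).

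With the GC trend removed, 46 further genes were called as higher and 75 as lower. Within the same limits on level, counts and overlap, the largest rises were those of the uncharacterized 1190005I06Rik, the zinc finger gene Zfp316 and Samd11. Zfp316 was at 1.82 and 2.0 FPKM in Vehicle and at 2.83 and 2.36 in LA, with a log2 fold change of 0.49 as fitted and 0.91 with the trend removed (edgeR's adjusted p = 0.000131). Samd11 was at 6.36 and 6.33 in Vehicle and at 8.07 and 8.92 in LA, with 0.46 and 0.82. The largest falls within these limits were those of Ccdc73, Csn3 and Olfr1033. Csn3, kappa-casein, was at 34.5 and 31.2 in Vehicle and at 23.3 and 22.0 in LA, a log2 fold change of -0.49 as fitted and of -0.99 with the trend removed (edgeR's adjusted p = 0.000354). The olfactory receptor gene Olfr1033, with a GC content of 32.6%, was at 10.8 and 13.3 in Vehicle and at 8.87 and 9.40 in LA, and its log2 fold change moved from -0.36 to -0.99. The calls of 1190005I06Rik (0.96 with the trend removed) and Ccdc73 (-1.12, and -0.67 as fitted, at 1.5 and 1.41 FPKM in Vehicle and 0.89 and 0.87 in LA) were lost with any 1 of the 4 libraries left out, at 0.74 to 1.10 and -1.18 to -1.05.

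Among genes with only non-coding transcripts and within the same limits on level, counts and overlap, Gm5177 and Mir686 rose most and Ppp1r2-ps3 and C86187 fell most in both fits. C86187, a long non-coding RNA gene, was at 5.05 and 5.48 FPKM in Vehicle and at 0.60 and 0.56 in LA. The groups were far apart, and it fell by 3.13 on the log2 scale (standard error 0.18, edgeR's adjusted p = 5.47e-08). Gm5177 went from 0.25 and 0.22 to 11 and 11.6. Ppp1r2-ps3 was at 6.65 and 7.86 in Vehicle and at 0.46 and 0 in LA, with a fitted log2 fold change of -4.74 that became -3.93 without LA 2 and -10.53 without LA 1, where no counts remained in LA and the value depends on the prior count. It shares 76.2% of its sequence with other genes, and Ppp1r2, which shares most of the genes in the files, was higher with LA (19.7 and 22.5 against 32.4 and 29.9, log2 fold change 0.61), so its fall is uncertain. Mir686 rested on 3.19 expected counts in Vehicle and lies in an exon of Psmb5, and its level of 2.29 and 0 in Vehicle and 51.0 and 57.8 in LA is uncertain. Of the 602 lncRNA genes tested, 9 were higher and 51 lower with the GC trend removed, where 0.845% and 2.48% of all genes were.

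Pathways were described with 34 gene lists, each by its counts of called members and its median. Over all genes tested, 3.53% were higher and 7.11% lower with a median of -0.01, and 0.845% and 2.48% with a median of -0.00 once the GC trend was removed. With the GC trend removed, 20 of the 34 lists had 0 members called by edgeR. With no fold threshold, 66 of their 445 tested members were higher and 29 lower at an adjusted p under 0.05 from edgeR. Of all 13969 genes, 1204 and 1297 were. Among the 445 members DESeq2 called 0, and limma on log2(FPKM + 1) called 0 higher and 1 lower.

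**Figure D5:**
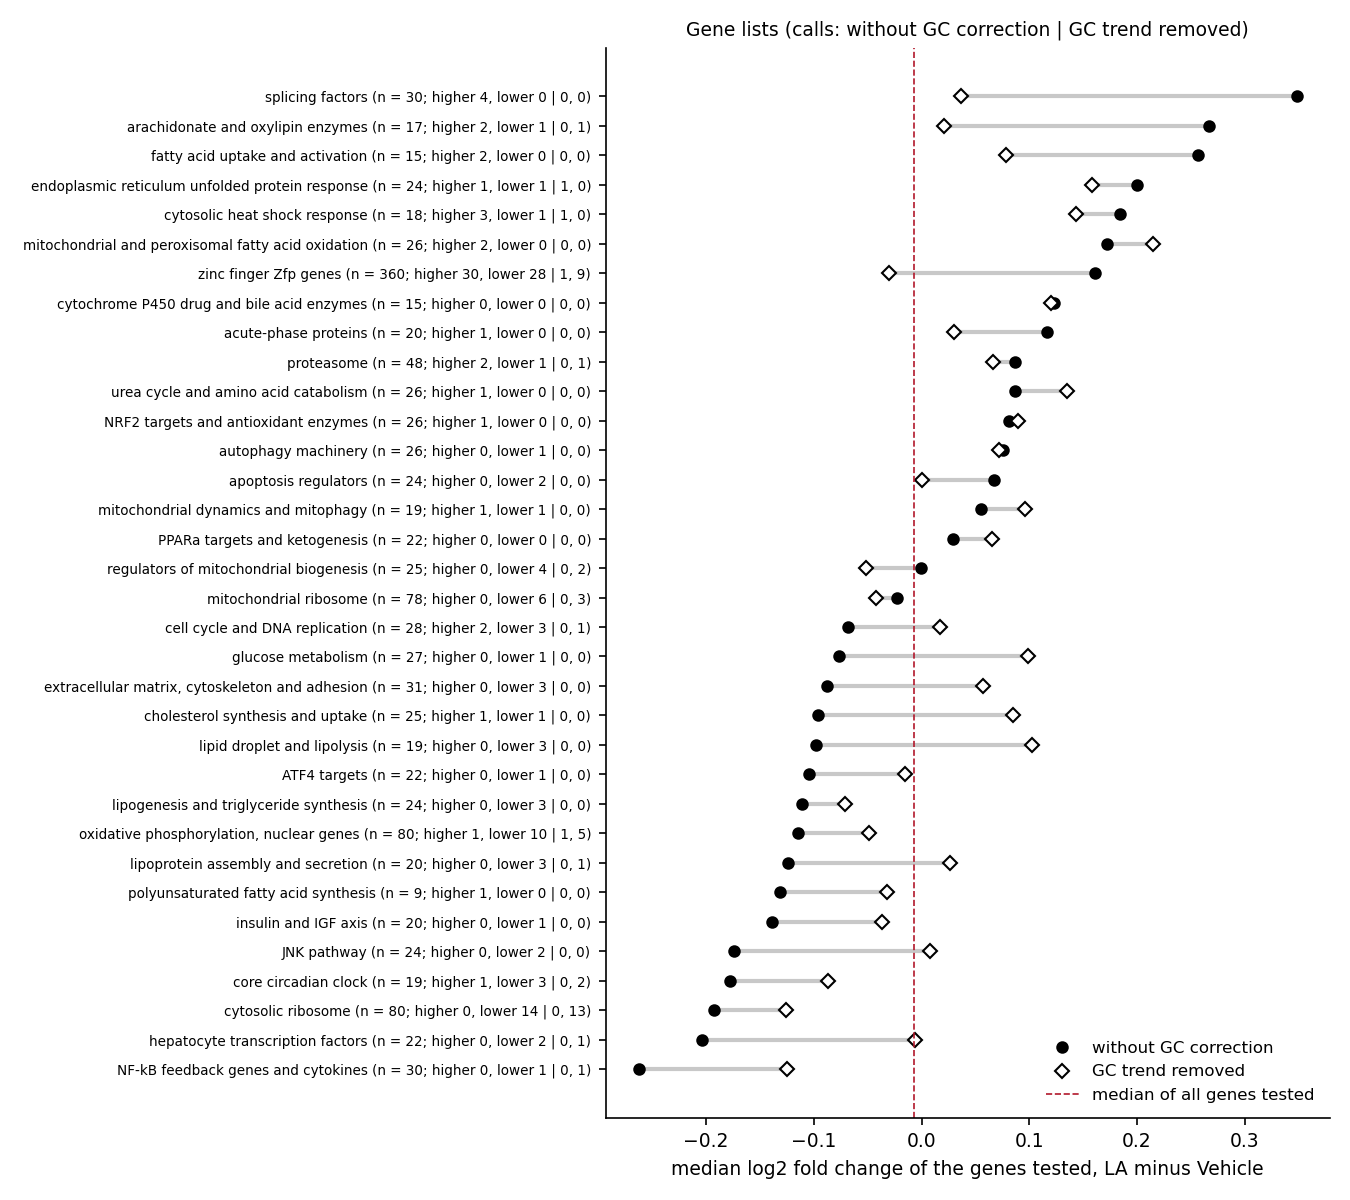
Median log2 fold change of LA minus Vehicle over the tested members of each of 34 gene lists, as fitted (filled) and with the GC trend removed (open), with the median of all genes tested as a dashed line and the numbers of members called in each fit in the row names. The medians run from -0.26 for NF-kB feedback genes to 0.35 for splicing factors as fitted, and from -0.13 to 0.22 with the trend removed.

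For polyunsaturated fatty acid synthesis, 1 of 9 members was higher (Scp2) and 0 lower, with a median log2 fold change of -0.13, and 0 were called with the GC trend removed. Scp2, which carries sterols and supplies the thiolase of peroxisomal oxidation, was at 98.2 and 92.3 FPKM in Vehicle and 150 and 137 in LA, with a log2 fold change of 0.64 (edgeR's adjusted p = 0.000107) and of 0.57, not called, without LA 1. The genes of the linoleate pathway are given although they fall outside the naming rule, chosen after their values were seen. Fads2, the first desaturase of the pathway, was at 73.2 and 79.5 in Vehicle and at 53.7 and 58.4 in LA. It was lower in both LA libraries, but its log2 fold change of -0.40 (edgeR's adjusted p = 0.000898) was under the fold threshold, and it was -0.18 with the GC trend removed. Fads1, the other front-end desaturase, was at 49.99 and 52.3 against 44.2 and 46.3, and the elongase gene Elovl5 at 32.2 and 32.2 against 35.7 and 32.9. Neither was called (log2 fold changes -0.13 and 0.14, and -0.02 and -0.09 with the GC trend removed).

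For fatty acid uptake and activation, 2 of 15 members were higher (13.3%, or 1 member with library-size scaling) and 0 lower, with a median of 0.26, and 0 were called with the GC trend removed (median 0.08). With single libraries left out the median ran from 0.079 to 0.39, and from 0.0049 to 0.10 with the GC trend removed. Acsl4, the acyl-CoA synthetase that prefers arachidonate, was at 40.3 and 42.4 FPKM in Vehicle and at 64.1 and 60.1 in LA. It did not overlap between groups, with a log2 fold change of 0.63 (standard error 0.06, edgeR's adjusted p = 6.48e-06), 0.58 with library-size scaling, which is under the fold threshold, and 0.18 with the GC trend removed. Acsm3 (0.66) was not called without Vehicle 1 (0.53) or LA 1 (0.57), and 39.7% of its exon bases lie opposite Eri2. Cd36, the fatty acid translocase, given outside the rule after its values were seen, was at 27.4 and 28.7 in Vehicle and at 40.5 and 39.3 in LA, with a log2 fold change of 0.55, under the threshold, and of 0.08 with the trend removed.

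For mitochondrial and peroxisomal fatty acid oxidation, 2 of 26 members were higher (1 with library-size scaling) and 0 lower, with a median of 0.17, and 0 were called by edgeR, DESeq2 and limma with the GC trend removed (median 0.22). At an adjusted p under 0.05 from edgeR with no fold threshold, 11 members were then higher and 0 lower, where 1204 and 1297 of all 13969 genes were. Etfa, the electron transfer flavoprotein subunit that takes electrons from acyl-CoA dehydrogenases, was at 95.2 and 85.0 FPKM in Vehicle and at 147 and 141 in LA. Both LA libraries were higher, with a log2 fold change of 0.73 (standard error 0.06, edgeR's adjusted p = 2.90e-06) and of 0.51 with the GC trend removed, not called. Abcd3, a peroxisomal acyl-CoA transporter, had 0.59 and was not called without Vehicle 1 (0.54) or LA 1 (0.57). Of 22 PPARα targets and genes of ketogenesis, 0 were called by edgeR in either direction, and DESeq2 and limma also called 0. Without GC correction or a fold threshold, 3 were higher and 2 lower at an adjusted p under 0.05 from edgeR. Of all 14097 genes, 2938 and 2886 were. The median of the list was 0.03, or -0.02 with library-size scaling. The members with the highest level were Plin2, the lipid droplet coat protein (455 and 466 against 412 and 413), and the fatty aldehyde dehydrogenase Aldh3a2 (84.1 and 84.4 against 98.6 and 96.3). Outside the rule and after their values were seen, Ppara was at 3.05 and 2.98 against 2.56 and 2.80, Cpt1a at 34.6 and 34.0 against 30.6 and 31.2, and Pdk4 at 2.43 and 2.65 against 2.50 and 3.14. None of these 3 was called, and Pdk4 overlapped between the groups.

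Among arachidonate and oxylipin enzymes, 2 of 17 were higher and 1 lower (2 lower with library-size scaling), with a median of 0.27, and 0 and 1 with the GC trend removed (median 0.02). Alox12, the platelet-type lipoxygenase, was at 0.44 and 0.44 FPKM in Vehicle and at 0.15 and 0.11 in LA. It was low in all 4 libraries and lower in both LA libraries, with a log2 fold change of -1.72 (edgeR's adjusted p = 0.00314) and of -1.62 with the GC trend removed, a call that was lost there with any 1 of the 4 libraries left out (-1.83 to -1.47). Ptgs2, the inducible cyclooxygenase (0.04 and 0.07 against 0.14 and 0.17, log2 fold change 1.47), was not called with any 1 of the 4 libraries left out (1.16 to 2.04). Cyp2c37 (2.11 and 1.79 against 3.21 and 2.85, 0.69) was not called without Vehicle 2 (0.57) or LA 1 (0.61).

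Of 24 genes of lipogenesis and triglyceride synthesis, 3 were lower (12.5%, against 7.11% of all genes) and 0 higher, with a median of -0.11, and 0 were called with the GC trend removed (median -0.07). Mlxipl, which encodes the carbohydrate response factor ChREBP, was at 33.9 and 32.6 FPKM in Vehicle and at 19.6 and 18.7 in LA. It was lower in both LA libraries, by 0.75 on the log2 scale (standard error 0.08, edgeR's adjusted p = 1.16e-05), and by 0.42 with the GC trend removed. Fatty acid synthase (Fasn) was at 10.5 and 10.3 in Vehicle and at 6.38 and 6.47 in LA, and Agpat2, an acyltransferase of triglyceride synthesis, at 38.1 and 39.0 against 24.7 and 23.7. Their log2 fold changes of -0.65 and -0.63 became -0.26 and -0.23. Srebf1 (14.5 and 14.1 against 9.93 and 9.88) and Scd1 (444 and 459 against 437 and 428), given outside the rule after their values were seen, had log2 fold changes of -0.49 and -0.02 and were not called. These 3 called genes have a GC content of 56.6% to 58.0%.

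For cholesterol synthesis and uptake, 1 of 25 members was higher and 1 lower (median -0.10), and 0 with the GC trend removed (0.08). Without correction, the median ran from -0.15 to 0.022 with single libraries left out. Idi1, the isopentenyl diphosphate isomerase, rose by 0.71 on the log2 scale (15.4 and 15.5 against 26.1 and 22.8), and Scap, the sterol-sensing escort of the SREBPs, fell by 0.67 (20.97 and 21.8 against 12.8 and 13.5). Of 19 lipid droplet and lipolysis genes, 3 were lower and 0 higher (median -0.10), and 0 with the GC trend removed (0.10). The triglyceride lipase Pnpla2 was at 32.8 and 32.9 FPKM in Vehicle and at 19.7 and 19.7 in LA, a log2 fold change of -0.69 (standard error 0.06, edgeR's adjusted p = 2.35e-06) and of -0.34 with the trend removed. Hormone-sensitive lipase (Lipe) had -0.73, and Plin4 had -0.65 and was not called without LA 2 (-0.58). In lipoprotein assembly and secretion, 3 of 20 were lower and 0 higher (median -0.12), and Apoc2 alone was lower with the GC trend removed. Apoc2, the activator of lipoprotein lipase, was at 40.3 and 41.6 in Vehicle and at 19.8 and 9.59 in LA, with a log2 fold change of -1.40 (edgeR's adjusted p = 0.000209) that was -2.04 without LA 1. It shares 79.5% of its exon bases with Gm44805 on the same strand and is uncertain. Pltp, the phospholipid transfer protein, had -0.90, and Tm6sf2 had -0.60 and was not called with any 1 of the 4 libraries left out (-0.74 to -0.47).

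Ribosomal protein genes were the list with the largest share of members called after the GC trend was removed. Of 80 cytosolic ribosomal proteins, 14 were lower (17.5%, against 7.11% of all genes) and 0 higher, with a median of -0.19. With library-size scaling 16 were lower, and with the GC trend removed 13 were, against 2.48% of all genes (median -0.13). Beside Rpl36 and Rpl31, Rps28 was at 1124 and 1092.5 FPKM in Vehicle and at 515 and 472 in LA (log2 fold change -1.12, edgeR's adjusted p = 1.87e-05). Rpl27 was at 532 and 532 in Vehicle and at 244 and 247 in LA (-1.07, edgeR's adjusted p = 1.06e-06). These genes were lower in both LA libraries with no overlap, but they share 62.7% and 54% of their sequence with other genes and are uncertain. Of 80 nuclear genes of oxidative phosphorylation, 10 were lower (12.5%, against 7.11% of all genes, and 12 genes with library-size scaling) and 1 higher, with a median of -0.12, and 5 and 1 with the GC trend removed (median -0.05). Cox7c, a subunit of cytochrome c oxidase, was at 378 and 348 in Vehicle and at 179 and 178 in LA. It was lower in both LA libraries by 0.98 on the log2 scale (edgeR's adjusted p = 5.83e-06) and by 1.46 with the GC trend removed. Cox8a, of the same complex, was at 208 and 197 in Vehicle and at 105 and 102 in LA, and its log2 fold change of -0.92 became -0.50, which was not called. Uqcr10 of complex III (138 and 132 against 65.5 and 64.0) fell in both fits, by 1.01 and 0.74 on the log2 scale, and Atp5g2 of ATP synthase (212 and 194 against 101 and 99.97) by 0.97 without correction only. The gene that rose in both fits was Ndufa12 of complex I, named after its values were seen, at 128 and 107 in Vehicle and 210.0 and 197 in LA (log2 fold change 0.84).

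In the mitochondrial ribosome, 6 of 78 genes were lower (8 with library-size scaling) and 0 higher (median -0.02), and 3 were lower with the GC trend removed (-0.04). Mrpl57 was at 8.66 and 8.18 FPKM in Vehicle and at 4.5 and 4.31 in LA, a log2 fold change of -0.89 (edgeR's adjusted p = 2.48e-05) and of -1.22 with the GC trend removed. Mrpl14, Mrpl52 and Mrpl55 had -0.87, -0.85 and -0.78, of which Mrpl55 was also lower with the trend removed (-0.64), but not there without LA 2 (-0.51). Of 25 regulators of mitochondrial biogenesis, 4 were lower (16.0%, against 7.11% of all genes) and 0 higher, with a median of -0.00. With the GC trend removed 2 were lower, against 2.48% of all genes. These 2, Ppargc1b and Ogg1, had been named by the study from these same libraries. The shares of this list are therefore no independent result. The coactivator gene Ppargc1b was at 1.27 and 1.17 in Vehicle and at 0.49 and 0.65 in LA, with a log2 fold change of -1.06 (edgeR's adjusted p = 0.000997). With the GC trend removed it was -0.68, and not called without Vehicle 1 (-0.63), Vehicle 2 (-0.73) or LA 1 (-0.46). Ogg1, the 8-oxoguanine glycosylase of base excision repair, was at 9.96 and 9.70 in Vehicle and at 5.12 and 5.02 in LA, and it fell by 0.91 on the log2 scale (edgeR's adjusted p = 8.39e-05) and by 0.68 with the trend removed. The nuclear receptor gene Esrra had -0.71, and the mitochondrial RNA polymerase gene Polrmt -0.68, or -0.54 and no call without LA 1. In mitochondrial dynamics and mitophagy, 1 of 19 was higher (0 with library-size scaling) and 1 lower (median 0.06), the protease gene Yme1l1 (0.62, not called without Vehicle 1 at 0.58) and the autophagy kinase gene Ulk1 (-0.69), which was also the 1 member lower of 26 genes of the autophagy machinery (median 0.08). Neither was called with the GC trend removed.

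Of 24 genes of the unfolded protein response, 1 was higher and 1 lower, with a median of 0.20, and 1 was higher with the GC trend removed (0.16). Hsp90b1, the chaperone GRP94, was at 316 and 315 FPKM in Vehicle and at 483 and 487 in LA, with a log2 fold change of 0.66 (standard error 0.06, edgeR's adjusted p = 1.86e-06) and of 0.39, not called, with the GC trend removed. The ubiquitin ligase gene Syvn1 was at 23.2 and 21.2 in Vehicle and at 11.3 and 10.8 in LA, with -0.93 and -0.56. Sdf2l1, a cofactor of endoplasmic reticulum chaperones, was called as higher only with the trend removed (0.80), at 11.1 and 9.41 in Vehicle and 14.1 and 13.2 in LA. In the cytosolic heat shock response, 3 of 18 were higher (1 with library-size scaling) and 1 lower, with a median of 0.18. The Hsp90 cochaperone gene Chordc1 was at 38.8 and 38.6 in Vehicle and at 59.8 and 61.1 in LA (log2 fold change 0.69), and the heat shock factor gene Hsf1 at 17.4 and 17.8 against 11.1 and 10.9 (-0.63). Hsp90aa1 (0.61) was not called without Vehicle 1 (0.57). With the GC trend removed, Hspa1b alone was called (0.61), but not with any 1 of the 4 libraries left out (0.51 to 0.72), and its measured levels overlapped between groups (2.85 and 2.62 against 2.85 and 3.30). Among 22 ATF4 targets, Atf5 was lower (346 and 345 against 203 and 230, -0.64, or -0.55 and not called without LA 1), the median was -0.10, and 0 were called with the GC trend removed. Among 26 NRF2 targets and antioxidant enzymes, Gsta1 was higher (0.63, or 0.57 and not called without Vehicle 2) and the median was 0.08, while with library-size scaling 0 were higher and 1 was lower, and with the GC trend removed 0 were called.

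Of 30 NF-kB feedback genes and cytokines, 1 was lower and 0 higher (4 lower with library-size scaling), with a median of -0.26, and 1 was lower with the GC trend removed (median -0.13). Nfkbib, an inhibitor of NF-kB, was at 20.7 and 18.6 FPKM in Vehicle and at 10.5 and 10.5 in LA, with a log2 fold change of -0.85 (standard error 0.09, edgeR's adjusted p = 6.89e-06) and of -0.42 with the trend removed. The chemokine gene Ccl7 was at 2.15 and 2.71 in Vehicle and 1.56 and 1.61 in LA, and was called only with the trend removed (-0.89), but not without Vehicle 2 (-0.71), LA 1 (-0.86) or LA 2 (-0.92). Among 20 acute-phase proteins, Crp was higher (15.7 and 16.0 against 22.6 and 24.1, 0.60, or 0.56 and not called without LA 2), the median was 0.12, and 0 were called with library-size scaling or with the GC trend removed. In the JNK pathway, 2 of 24 were lower and 0 higher, with a median of -0.17, and 0 were called with the GC trend removed (0.01). The kinase gene Map3k11 was at 16.1 and 15.7 in Vehicle and at 8.76 and 9.54 in LA (-0.75), and the scaffold gene Mapk8ip1 (-0.95) was not called without LA 1 (-0.75). For the insulin and IGF axis, Irs2 was lower (1 of 20, -0.60, not called without Vehicle 2 at -0.58 or LA 1 at -0.56), the median was -0.14, and 0 were called with the GC trend removed. Of 24 apoptosis regulators, 2 were lower (4 with library-size scaling) and 0 higher, with a median of 0.07, and 0 were called with the GC trend removed. The BH3-only genes Bbc3 (11.8 and 10.6 against 5.20 and 5.68, -1.0, and -0.47 with the trend removed) and Bik (-0.64, not called without Vehicle 1 at -0.42 or LA 2 at -0.43) were the members called. With the trend removed Bik had -0.18, and its sign changed without Vehicle 1 (0.018) and without LA 2 (0.0084).

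Among genes of hepatocyte function, 2 of 22 hepatocyte transcription factors were lower and 0 higher, with a median of -0.20, and 1 was lower with the GC trend removed (-0.01). Klf15 (-0.59) was not called without Vehicle 2 (-0.56) or LA 2 (-0.53), and Prox1, at 18.3 and 17.2 in Vehicle and 12.5 and 12.97 in LA, was called as lower only with the trend removed (-0.64, or -0.58 and not called without Vehicle 1). Of 15 genes for cytochrome P450 drug and bile acid enzymes, a list that includes their reductase, 0 were called by edgeR in either direction. DESeq2 called 0, limma called 1 lower, 1 was lower with library-size scaling, and the median was 0.12. With no fold threshold, 5 were higher and 1 lower at an adjusted p under 0.05 from edgeR. Of all 14097 genes, 2938 and 2886 were. The most abundant of the list were Cyp2a5 (327 and 354 against 399 and 426) and the reductase gene Por (69.7 and 69.6 against 45.4 and 46.0, log2 fold change -0.56). In the urea cycle and amino acid catabolism, the tryptophan dioxygenase gene Tdo2 was higher (1 of 26, 34.3 and 32.6 against 57.6 and 50.4, 0.74), the median was 0.09, and 0 were called with the GC trend removed. That median ran from -0.035 to 0.21 with single libraries left out, and from -0.012 to 0.26 with the GC trend removed. In glucose metabolism, the kinase gene Pdk2 was lower (1 of 27, -0.59, not called without Vehicle 1 at -0.58 or LA 1 at -0.43), the median was -0.08, and 0 were called with the GC trend removed.

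In the core circadian clock, 1 of 19 members was higher (0 with library-size scaling) and 3 were lower, with a median of -0.18, and 2 were lower with the GC trend removed (-0.09). The clock repressor gene Per1 was at 5.95 and 6.03 FPKM in Vehicle and at 2.23 and 2.74 in LA. It was lower in both LA libraries, by 1.23 on the log2 scale (standard error 0.12, edgeR's adjusted p = 5.83e-06) and by 0.78 with the GC trend removed. Rora, which activates Bmal1 transcription, was at 9.99 and 9.41 against 7.72 and 7.90 and called as lower only with the trend removed (-0.65). Nr1d1, a repressor of the clock named after its values were seen, was lower without correction (-0.62, or -0.51 and not called without LA 1), as was Npas2 (-0.90, not called with any 1 of the 4 libraries left out, -1.04 to -0.76), and Nr1d2 was higher (0.62, or 0.56 and not called without LA 1). Of 28 cell cycle genes, 2 were higher and 3 lower (median -0.07), and with the GC trend removed 0 were higher and 1 lower (0.02). The S phase cyclin genes Ccna2 (2.66 and 2.75 against 4.35 and 4.31, 0.72) and Ccne2 (2.30 and 2.36 against 3.77 and 3.56, 0.70) were higher without correction but not called with the trend removed (0.56 and 0.16), and the mitotic cyclin gene Ccnb1 was lower in both fits from 0.37 and 0.34 to 0.16 and 0.05. The Ccnb1 change (-1.57) was -2.60 without LA 1 and was not called without Vehicle 1 (-1.51), Vehicle 2 (-1.64) or LA 2 (-1.07), and with the GC trend removed it was -1.82, -2.84 without LA 1 and not called without Vehicle 1 (-1.76), Vehicle 2 (-1.90) or LA 2 (-1.34). Mcm5 (-0.64) was not called without Vehicle 2 (-0.50) or LA 2 (-0.53). Of 31 genes of extracellular matrix, cytoskeleton and adhesion, 3 were lower and 0 higher (median -0.09), and 0 were called with the GC trend removed (0.06). They were the laminin gene Lama5 (-0.69, and -0.22 with the trend removed), Tgfb1 (8.63 and 8.89 against 5.36 and 5.22, -0.68, and -0.15) and Col1a1 (-0.74, or -0.51 and not called without LA 1).

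The list with the largest median was that of 30 splicing factors, at 0.35, and its median GC content of 42.9% was low. Of its members, 4 were higher (13.3%, or 2 members with library-size scaling) and 0 lower, and 0 with the GC trend removed, when the median was 0.04. Srsf1 was at 27.7 and 27.7 FPKM in Vehicle and at 43.8 and 40.9 in LA (log2 fold change 0.66, edgeR's adjusted p = 2.52e-06), and Srsf5 at 183 and 176 against 263 and 276 (0.63). Hnrnpa3 (0.64) was not called without Vehicle 2 (0.57) and Rbm39 (0.61) not without Vehicle 1 (0.55) or LA 1 (0.58). The 360 tested Zfp zinc finger genes also had a low median GC content (44.2%). Of these, 30 were higher (8.33%, against 3.53% of all genes) and 28 lower (7.78%, against 7.11%), with a median of 0.16. With library-size scaling 26 were higher and 32 lower, and with the GC trend removed 1 was higher and 9 lower (median -0.03). Zfp414 was at 9.51 and 10.0 in Vehicle and at 3.51 and 4.35 in LA, and it fell by 1.26 and, with the trend removed, 0.83 on the log2 scale, a call lost there without LA 1 (-0.68). The calls of Zfp503 (-1.34, or -1.0 without Vehicle 1 and -1.20 without LA 1), Zfp934 (1.27, or 1.17 without Vehicle 2 and 1.11 without LA 2) and Zfp773 (-0.97, as large without LA 1 with an adjusted p of 0.0516 from edgeR) depended on these libraries. Of 48 proteasome genes, 2 were higher (1 with library-size scaling) and 1 lower (median 0.09), and 0 and 1 with the GC trend removed (0.07). The ATPase subunit gene Psmc6 was at 89.1 and 92.6 in Vehicle and at 148 and 149 in LA (0.75), Psma1 had 0.61 and was not called without LA 1 (0.55), and the assembly factor gene Psmg4 was at 21.2 and 24.2 against 10.6 and 11.9 (-0.99). Psmg4 was also lower with the GC trend removed (-0.73, or -0.61 and not called without Vehicle 2).

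A direct test of LA against PA, at doses of 12 and 200 μM, sets aside the Vehicle means, although all 10 libraries give the estimate of the spread. It called 288 genes higher with LA (2.04%) and 167 lower (1.18%), and 286 (2.05%) and 155 (1.11%) with the GC trend removed. Of the genes with large changes with LA, Lrrc17 was at 2.05 and 2.45 FPKM in the PA libraries, Cdnf at 11.2 and 12.1, and Npy1r at 1.16 and 1.48. Vehicle is shared by the comparisons of LA and of PA with it, so these levels are given side by side only. For Lrrc17 and Cdnf the difference was not called (log2 of 0.14 and 0.17), and Npy1r was lower with LA than with PA by 0.64 (edgeR's adjusted p = 0.0138). Among the non-coding genes, Mir686 (16.1 and 21.03 with PA, log2 difference 1.5) and Ppp1r2-ps3 (1.95 and 0.93, -2.28) were called between LA and PA as well. Of the desaturase genes, Scd1 and Fads2 were called and Fads1 was not (36.96 and 38.8 with PA, log2 difference 0.27). Scd1, the stearoyl-CoA desaturase, was at 201 and 212 with PA against 437 and 428 with LA, a log2 difference of 1.08 (standard error 0.06, edgeR's adjusted p = 1.70e-07). Fads2 was at 33.5 and 40.4 with PA, lower than in both LA libraries by a log2 difference of 0.60 (edgeR's adjusted p = 0.000335). Scp2 (96.4 and 87.0 with PA, log2 difference 0.66), Aldh3a2 (64.0 and 64.2, 0.62) and Tdo2 (36.8 and 34.0, 0.63) were higher with LA as well. So was Tm6sf2, at 0.76 and 0.69 with PA and 1.61 and 1.56 with LA (log2 difference 1.16). Ccl7 was at 6.48 and 6.12 with PA and lower with LA by 1.97 (edgeR's adjusted p = 7.82e-05), as were Sdf2l1 (21.7 and 23.9, -0.74) and the macrophage marker Cd68 (195 and 232, -0.78). The levels of the other Kupffer cell markers went both ways. Cd5l (1.16 and 1.31 with PA, 2.66 and 2.69 with LA), Clec4f, C1qa and Vsig4 were higher in both LA libraries. Marco (3.95 and 2.9 with PA, 0.42 and 0.94 with LA) and Adgre1 were lower in both, and Csf1r overlapped.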

How the data were processed

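RNA sequencing reads were aligned by the authors with HISAT and Bowtie2 to the mm10 genome and quantified with RSEM, per the submitters' processing notes, which give no versions. The deposited files list an expected count and an FPKM for each gene, only for genes with an FPKM of at least 0.01 in that library, and no genes of the mitochondrial genome were among them. Groups followed the sample labels, whose replicate numbers differ from those in some file names. Expected counts were rounded, a gene missing from a file was set to 0, and 14097 genes passed edgeR's filter on low counts while 3958 did not. Depth over the 10 libraries ran from 13142588 to 60046937 expected counts, and TMM factors from 0.977 to 1.04. edgeR's quasi-likelihood test (R 4.3.3, edgeR 4.0.16) used 5 groups of 2 libraries, with Benjamini-Hochberg adjustment over all genes tested, and the common biological coefficient of variation was 0.0682. The standard errors given were worked back from this test. Each is the absolute log2 fold change divided by the square root of the F statistic, so for genes near 0 counts they are rough.

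GC content came from the longest protein-coding transcript of a gene in GENCODE M21, or else its longest transcript, with 17998 of 18055 gene IDs matched by ID and 11 by accession, and it was available for 98.8%. For the fit with the GC trend removed, a loess curve (span 0.4) of each gene's deviation from its mean over the 10 libraries on GC content was entered as an offset for each library. Both fits were run on simulated counts only as a check of the code. The planted trend was a straight line on the same GC content that the curve uses, so its removal was built in. It gave many false calls without correction and few once the trend was removed. This has no bearing on which fit suits these libraries, and whether the calls made here without correction include false ones was not tested. Shared sequence counts, in percent, how many of the 31-base stretches of a transcript are also found in a transcript of another gene, and overlaps are those of annotated exons, since the strandedness of the libraries was not given. The check for pairs by replicate number gave correlations of -0.0692 to 0.127 across genes between groups (-0.0457 for Vehicle and LA), so no pairing was used.

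Alternatives were library-size scaling, DESeq2 1.42.0, limma 3.58.1 on log2(FPKM + 1) and log2(FPKM + 0.1), other filters on low counts, no fold threshold, only the 4 Vehicle and LA libraries, a replicate block, each library left out, a trend on transcript length and other GC curves. Genes named for the size of their change had a mean of at least 1 FPKM, at least 50 expected counts in the higher group and no overlap between groups. They were the 10 largest rises and falls of protein-coding genes called in both fits, 4 and 4 called only without correction, 3 and 3 called only with the GC trend removed, and 2 and 2 non-coding genes called in both. Without these limits were named 4 genes the study names (Ppargc1b, Ogg1, Cox7c and Cox8a) and up to 4 called members of each of 34 gene lists, or the 2 with the highest level where none was called. Members and lists were chosen with earlier results of these data known. Some named genes and a sequence are not reported here.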

Additional observations from a re-analysis of the deposited data

How the results depend on the processing

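The counts of genes higher and lower with LA than with Vehicle stayed within 1.5 times the reported ones, with and without the GC trend, under library-size scaling, DESeq2, both other filters on low counts, the fit of the 4 libraries and limma on log2(FPKM + 0.1). The same held for removal of a trend on transcript length (without the GC trend removed) and for the 2 other GC curves (with it removed). With no fold threshold 2938 genes were higher and 2886 lower, and 1204 and 1297 with the GC trend removed, since smaller changes then count. With limma on log2(FPKM + 1) 186 were higher, and 55 with the GC trend removed, where the added 1 shrinks changes at low levels. Removal of the GC trend left 118 higher and 346 lower genes. With a replicate block the counts were 500 and 1019, and 123 and 355 with the GC trend removed.

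Leaving out each library left a group with a single sample, taken to have the same spread as the remaining groups. The counts then ran from 437 to 613 higher and 866 to 916 lower, and from 92 to 128 and 245 to 287 with the GC trend removed.

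Of 135 named genes, 123 kept their direction and their side of the thresholds with library-size scaling, 130 with DESeq2, 99 with limma on log2(FPKM + 1) and 54 with the GC trend removed. With 1 choice changed at a time, the log2 fold changes that changed sign belonged to genes that were not called. Elovl5 had -0.0904 and Pdk4 -0.0370 with the GC trend removed. With single libraries left out Scd1 ran from -0.0397 to 0.00345 (0.00345 without Vehicle 2 and 0.00196 without LA 2), and the cause was not tested. Depth limits genes with few counts, such as Amd2, Ppp1r2-ps3 and Mir686, whose fitted values depend on the prior count. List medians also moved with single libraries left out, for some lists across 0. Without GC correction, that of lipoprotein assembly and secretion ran from -0.14 to 0.0034, and that of PPARα targets and ketogenesis from -0.018 to 0.11.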
